A study of Mus musculus with 25 samples.

Results

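The early hours of the fed lung were examined by setting lungs of fed C57BL/6 mice taken at 2 h and 4 h against lungs of fed mice taken at 0 h, on Affymetrix MG-U74Av2 arrays of total lung RNA. C57BL/6 is an inbred laboratory mouse strain. Arrays were chosen by title: 2 control arrays at 2 h, 2 at 4 h and 4 at 0 h, together 8 of the 25 arrays of the series, and every probe set that is not an array control was used. The series follows the loss of alveoli under food restriction, and its remaining arrays are 2 fed arrays at 12 h and restricted lungs, with 1 array of another type that was not analysed here. The hours of a control are counted from the moment restriction began in other mice, and the clock time of that moment is not given. The control descriptions call the mice always fed yet also carry the wording of the food reduction, so that unrestricted feeding is a reading of the labels and not certain. Age and sex are not given. The 0 h arrays alone bear 2 numbers, 1 and 2, each with letters a and b, while the 2 h and 4 h arrays are numbered 1 with letters a and b. The labels do not say if letters mark separate mice or the same RNA hybridised again, so the p-values may cover technical spread alone.

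Lung, like other tissues, runs a circadian clock. The activators Clock and Arntl (Bmal1) bind DNA at E-boxes and switch on Per and Cry genes, whose products shut the activators off, as well as Nr1d1 and Nr1d2 (Rev-erb alpha and beta), which repress Arntl. Dbp, Tef and Hlf are output factors that bind D-boxes, and Bhlhe40 represses E-box genes. Glucocorticoid hormone, itself secreted in a daily rhythm, switches on genes such as Fkbp5, Zbtb16 and Klf9. The lung holds alveolar epithelium, vessels, airway cells, smooth muscle, resident macrophages and blood cells, and heart muscle cells sheath its large veins.

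Array medians as deposited lay between 300.2 and 342.3 in the fed groups. The brightest probe set reached 33893 to 47510 on the 4 arrays of 2 h and 4 h and 53258 to 54315 on both arrays of 0 h number 2, but 86942 to 93445 on those of 0 h number 1 and 87542 to 98445 at 12 h. The 3' to 5' signal ratio of the Gapdh control probe sets, a measure of RNA or labelling quality, was 1.76 to 2.02 at 0 h and 1.01 to 1.44 at 2 h and 4 h, without overlap. The same ratio for actin was 1.87 to 2.31 at 0 h and 1.48 to 2.37 at 2 h and 4 h. The letters of one 0 h number correlated at r = 0.956 and 0.959 over probe sets, arrays of different 0 h numbers at 0.854 to 0.871, and the 4 arrays of 2 h and 4 h among themselves at 0.949 to 0.976. Between the 0 h numbers 2969 of 7440 probe sets differed at an adjusted p under 0.05. The 4 early arrays were compared with all 4 arrays at 0 h and also with each number alone. Of the lung markers, Sftpc of alveolar type II cells read 29127 to 97698 and Scgb1a1 of club cells 33488 to 75170.0 on the 8 arrays. The liver genes Alb, Apoa1 and Ttr, the T-cell genes Cd3d, Cd3e and Cd3g and the macrophage gene Marco stayed below the brightness filter, and so did Sftpd of type II cells (at most 232 on the 8 arrays). In whole lung, fewer cells of a type and less RNA per cell cannot be told apart.

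Over all 4 arrays at 0 h, 89 of 7440 probe sets (1.2%) were called different at 2 h and 4 h by limma with Benjamini-Hochberg adjustment, of which 58 rose (0.78%) and 31 fell (0.417%). They stood for 79 genes, 54 higher and 25 lower. The rises were 1.35-fold to 4.74-fold with a median of 1.75-fold, and the falls 1.39-fold to 2.85-fold with a median of 1.78-fold, and folds of probe sets under the floor on some array are understated. The comparison depended on the 0 h number. Against number 1 alone 1252 probe sets rose (16.8%) and 1137 fell (15.3%), whereas against number 2 alone 460 rose (6.18%) and 341 fell (4.58%). Of these, 245 were called in opposite directions against the numbers and 96 in the same direction. Both comparisons share the 4 early arrays. In all 3 comparisons together 75 probe sets (1.01%) changed in 1 direction, 48 up and 27 down, and for 72 of them all 4 early arrays lay beyond all 4 arrays at 0 h. Over all probe sets, 293 (3.94%) had the 4 early arrays above every 0 h array and 238 (3.2%) had them below.

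The 89 calls rest on a spread estimated from all 24 arrays. With the 10 fed arrays alone in the fit no probe set was called, although 683 had an unadjusted p under 0.05. With the 8 arrays of the comparison alone 1 was called (688 unadjusted), and with letters a and b averaged, as would fit repeat arrays of one RNA, 0 (144 unadjusted). Against the separate numbers the 10 fed arrays alone still gave 2305 calls for number 1 and 690 for number 2. When single arrays were left out, the count over all 4 arrays at 0 h ranged from 21, without array 1b of 2 h or 1b of 4 h, to 233, without array 2b of 0 h, and was 55 and 29 without 1a and 1b of 0 h, 29 without 1a of 2 h and 24 without 1a of 4 h. Against number 1 it was 1434 and 1481 without 1a and 1b of 0 h, and against number 2 it was 106 without 2a of 0 h and 507 and 488 without 1a and 1b of 4 h. The direction of all 89 was kept in each of those 8 fits. The same arrays had selected the 89. For 85 of them all early arrays lay beyond all 0 h arrays, which fixes that outcome. Of the 89, 13 probe sets stayed called in every fit. These 13 belong to Apbb1ip, Fkbp5, Sirpa, Zfp36l2, Cdc42ep4, Rac2, Dbp, Npnt, Lyve1 and Shisa5, which rose, and to Ddx6, Calml4 and Tnni3, which fell.

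**Figure D1:**
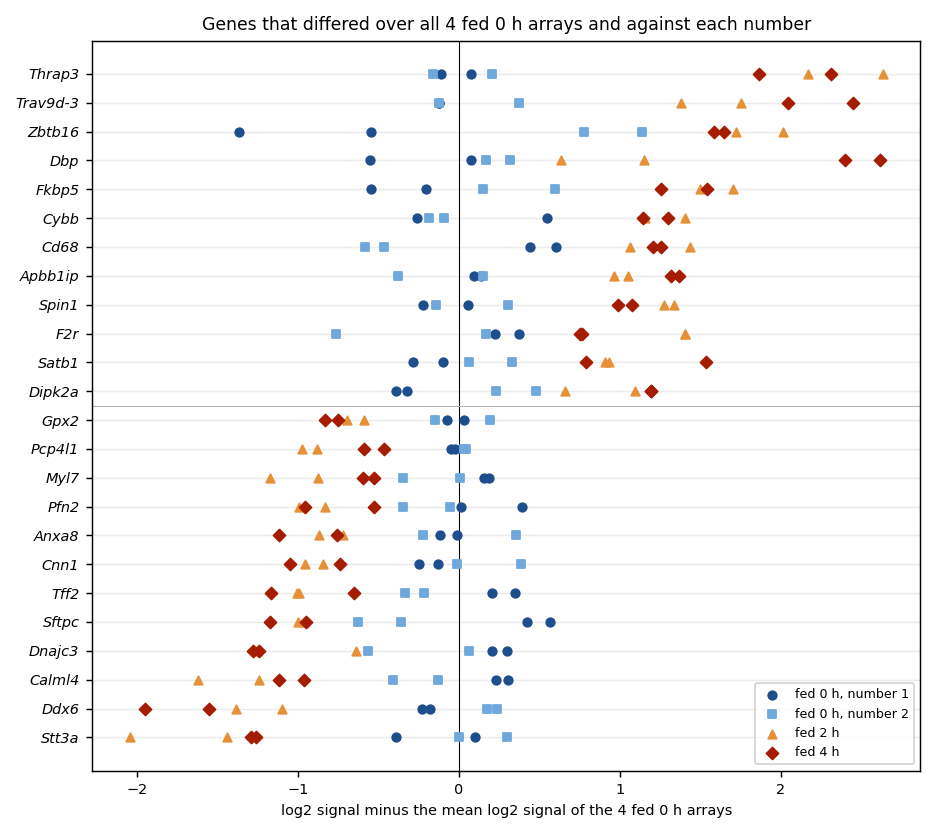
Log2 signal of the 12 largest rises and 12 largest falls among genes called over all 4 arrays at 0 h and against each number, 1 point per array, set against the mean log2 signal of the 4 arrays at 0 h (vertical line). Circles and squares are 0 h numbers 1 and 2, triangles 2 h and diamonds 4 h; in each row all 4 early arrays lie beyond all 4 arrays at 0 h, which the choice of genes requires.

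**Figure D2:**
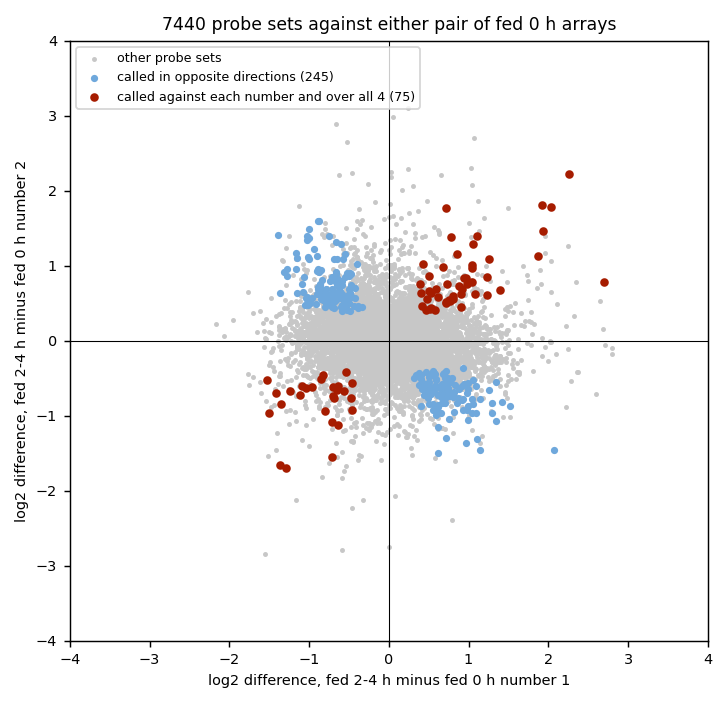
Log2 difference of the 4 early arrays from 0 h number 1 (horizontal) and number 2 (vertical) for 7440 probe sets, 1 point each. The 75 probe sets called in all 3 comparisons are red and the 245 called in opposite directions are blue; the axes share the early arrays, so the plot shows each comparison's values and no independent agreement.

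Among clock genes the output factor Dbp, the repressor Nr1d2 and the repressor Bhlhe40 rose. Dbp had a signal of 109, 168, 199 and 179 on the arrays at 0 h, 248 and 354 at 2 h, and 843 and 979.7 at 4 h. All 4 early arrays lay above all 0 h arrays, with the 4 h arrays far above those of 2 h. The rise was 3.25-fold (95% confidence interval 2.19 to 4.81, adjusted p = 0.0048). At 4 h alone Dbp was 5.69-fold above 0 h (3.52 to 9.21, adjusted p = 0.00163), and at 2 h alone 1.85-fold (adjusted p = 0.31). Nr1d2 read 484, 333, 543 and 312 at 0 h, 737 and 531 at 2 h, and 1071 and 1118 at 4 h, where only the second 2 h array fell within the 0 h range. It rose 2.03-fold over both hours (adjusted p = 0.0197) and was 2.69-fold above 0 h at 4 h (adjusted p = 0.0104). Bhlhe40 read 365, 414, 572 and 633 at 0 h, then 708 and 664 at 2 h and 1343 and 1107 at 4 h. Its rise was 1.89-fold over both hours (adjusted p = 0.0276) and 2.52-fold at 4 h (adjusted p = 0.013). Dbp, Nr1d2 and Bhlhe40 also passed against each 0 h number.

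The activator Arntl fell at 4 h. Its signal was 567, 544, 668 and 662 at 0 h, 573 and 603 at 2 h, and 305 and 242 at 4 h, so that the 2 h arrays lay inside the 0 h range and the 4 h arrays below it. Arntl was 2.24-fold lower at 4 h than at 0 h (1.65 to 3.03, adjusted p = 0.0134), while the mean of both hours did not pass (1.52-fold lower, adjusted p = 0.0921). The direct tests of 4 h against 2 h did not pass, with adjusted p of 0.448 for Dbp and Arntl and 0.986 for Nr1d2 and Bhlhe40. Nr1d1 read 641 and 632 in number 1 and 1263 and 1448 in number 2, against 1006 and 949 at 2 h and 2524 and 1799 at 4 h, and rose against number 1 only (2.27-fold, adjusted p = 0.000609). Per1, Tef and Per2 likewise passed against number 1 only, 1.92-fold, 2.01-fold and 2.25-fold higher, with adjusted p of 0.00385, 0.000845 and 0.0173. For Per2 both number 1 arrays lay at the floor, so its fold is a lower bound. All 4 early arrays of Per1 (465 to 525) lay above all 0 h arrays (220 to 416), yet it missed the threshold over all 4 (adjusted p = 0.198). Cry2 lay at 219 and 129 at 2 h and 219 and 127 at 4 h, below all 0 h arrays at 254 to 371, yet missed the threshold (1.83-fold lower, adjusted p = 0.119). Cry1, at 630.2 to 859 at the early hours, also lay below all 0 h arrays (879 to 1177). It missed the threshold over all 4 (adjusted p = 0.216) and passed against number 1 (1.5-fold lower, adjusted p = 0.0104). Of 18 clock genes measured, 3 rose and 0 fell over all 4 arrays at 0 h, against 46 and 20 of 5706 genes (0.806% and 0.351%). By hour, 3 clock genes rose and 1 fell at 4 h and none was called at 2 h. Of all 5706 genes 14 rose and 5 fell at 4 h, and 2 rose and 4 fell at 2 h. Against number 1, 9 rose and 2 fell with a median log2 difference of 0.65, and against number 2, 3 rose and 1 fell with a median of -0.11. Over all genes 17.9% rose and 15.5% fell against number 1 and 6.33% and 4.78% against number 2, with medians of 0.01 and -0.01.

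**Figure D3:**
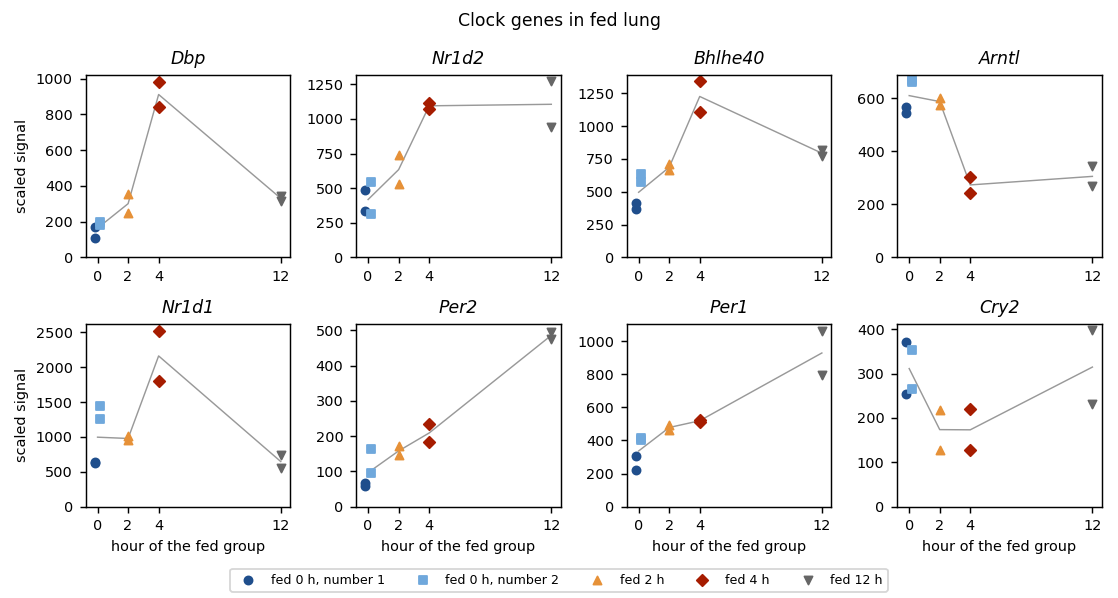
Scaled signal of 8 clock genes against the hour of the fed group, 1 point per array, with a line through the group means (0 h mean over 4 arrays). Dbp, Nr1d2 and Bhlhe40 are higher and Arntl lower at 4 h than at 0 h, while Nr1d1 shows number 1 at 632 to 641 and number 2 at 1263 to 1448.

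The stretches ahead of clock genes were read for E-boxes and D-boxes, and 3 are shown. They are those of Dbp and Nr1d2, which rose, and the Per1 stretch picked because it holds an E-box. Each is the 250 bases before the annotated start, 5' to 3' on the gene's strand, from RefSeq (GRCm38.p6), in lower case with any E-box (CACGTG, its own reverse complement) or D-box (TTATGTAA, either strand) in capitals. They lie at chr7:45704997-45705246 (plus strand), chr14:18239107-18239356 (minus strand) and chr11:69098699-69098948 (plus strand).
Dbp: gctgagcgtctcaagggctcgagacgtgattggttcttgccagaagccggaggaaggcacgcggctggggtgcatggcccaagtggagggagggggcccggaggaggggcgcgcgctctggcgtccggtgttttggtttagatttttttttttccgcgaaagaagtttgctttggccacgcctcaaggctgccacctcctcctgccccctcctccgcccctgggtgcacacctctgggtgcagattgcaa
Nr1d2: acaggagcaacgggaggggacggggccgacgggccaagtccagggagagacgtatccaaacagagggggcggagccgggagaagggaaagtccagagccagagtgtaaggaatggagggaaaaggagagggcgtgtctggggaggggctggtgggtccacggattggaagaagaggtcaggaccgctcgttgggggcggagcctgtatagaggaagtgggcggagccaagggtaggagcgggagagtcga
Per1: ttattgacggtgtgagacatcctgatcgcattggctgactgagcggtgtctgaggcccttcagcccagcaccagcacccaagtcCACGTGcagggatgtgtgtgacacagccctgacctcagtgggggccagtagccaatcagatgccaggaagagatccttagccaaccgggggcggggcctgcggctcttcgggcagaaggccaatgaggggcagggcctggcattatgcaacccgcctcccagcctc

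The Per1 E-box begins 166 bases before the start, and neither motif is spelled in the windows of Dbp and Nr1d2. Another Per1 window, at chr11:69099902-69100151 before a different annotated start, holds neither motif. RefSeq windows were found for 15 of the 18 clock genes measured, of which 3 (Cry1, Per1 and Tef) held an E-box and 2 (Per3 and Timeless) a D-box. Some of these genes have more than 1 window, and a gene was counted when any of its windows held the motif. Of all 32851 windows of this length 6.02% hold the E-box letters and 0.819% the D-box letters. These are shares of windows and cannot be set directly against the counts of genes. A match describes letters and not a bound site, and its absence says only that these letters are not in this window.

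Glucocorticoid-induced genes included some of the largest rises. Fkbp5 encodes a chaperone partner that restrains the glucocorticoid receptor. Its signal was 279, 221, 358 and 487 at 0 h, 1049.5 and 908 at 2 h, and 937 and 769 at 4 h, without overlap. It rose 2.83-fold (2.14 to 3.74, adjusted p = 0.00106), by 3.67-fold against number 1 and 2.18-fold against number 2. Zbtb16, a zinc finger transcription factor, read 250.4 and 443 in number 1, 1107 and 1422 in number 2, 2129 and 2614 at 2 h, and 2022 and 1936 at 4 h. The groups did not overlap, but the size of the rise differed, with 6.48-fold against number 1 (adjusted p = 4.01e-07) and 1.72-fold against number 2 (adjusted p = 0.0288). Txnip, which binds thioredoxin and limits glucose uptake, rose 1.36-fold (adjusted p = 0.0424), from 4723 to 5345 at 0 h to 6150.1 to 7979 at the early hours; its dimmer probe set differed by a log2 of -0.27 (adjusted p = 0.653). Klf9, a transcription factor, rose 2.05-fold by 1 probe set (adjusted p = 0.0438; 1.61-fold against number 2, adjusted p = 0.0922), while its brighter probe set differed by a log2 of -0.03 (adjusted p = 0.972). Counting 1 probe set per gene, the brightest, 3 of 23 genes of this list rose and 0 fell; against number 1 it was 6 and 2, against number 2 it was 7 and 0, beside shares over all genes of 0.806% and 0.351%, 17.9% and 15.5%, and 6.33% and 4.78%. Their median log2 difference was 0.14, beside 0.00 over all genes, with 14 genes higher and 9 lower. Against number 1 this median was 0.21 and against number 2 it was -0.04, beside 0.01 and -0.01 over all genes.

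Lpl, the lipase that frees fatty acids from blood lipoproteins, read 969.9, 1171, 1188 and 1369 at 0 h, 2021 and 1671 at 2 h, and 1899 and 1888 at 4 h, without overlap. It rose 1.6-fold (adjusted p = 0.0213; 1.22-fold higher by a dimmer probe set, adjusted p = 0.721) and was the only one of 19 fatty acid oxidation and PPAR target genes called over all 4 arrays at 0 h. Cited2, a transcriptional co-regulator, rose 1.75-fold (adjusted p = 0.0318), from 1317 to 1933 at 0 h to 2319 to 3053. Zfp36l2, which destabilises mRNAs, rose 1.8-fold (adjusted p = 0.0048), from 1312 to 2120.2 at 0 h to 2892 to 3323, with a log2 difference of -0.51 at its dimmer probe set (adjusted p = 0.478). Satb1, a chromatin organiser abundant in T cells, rose 2.06-fold (adjusted p = 0.0276), from 212 to 325 to 448 to 752. None of 27 immediate early genes, 16 glycolysis genes or 14 cholesterol synthesis genes was called over all 4 arrays at 0 h. Of all genes 0.806% rose and 0.351% fell, shares at which lists of these sizes may hold no call or 1.

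Genes of macrophages and other blood leukocytes formed the next group of rises. Cd68, a lysosomal protein of macrophages, read 972 and 1086 in number 1, 518 and 478 in number 2, 1492 and 1938 at 2 h, and 1708 and 1652 at 4 h. All early arrays exceeded all 0 h arrays, and the rise was 2.36-fold overall (1.72 to 3.25, adjusted p = 0.00951), 1.65-fold against number 1 and 3.4-fold against number 2. Cybb, the catalytic subunit of the phagocyte NADPH oxidase, read 193, 111, 117 and 124 at 0 h, 351 and 296 at 2 h, and 327 and 293 at 4 h. It rose 2.38-fold (adjusted p = 0.0302), and at 12 h it was at 131 and 127. Adgre1, which encodes the macrophage surface antigen F4/80, read 169, 162, 39.2 and 61.4 at 0 h and 296 to 368 at the early hours, at least 2.95-fold higher because 2 of the 0 h arrays lay under the floor (adjusted p = 0.0438; adjusted p = 0.0648 against number 1 and 0.00377 against number 2). Apbb1ip, an adaptor of integrin activation found in leukocytes, rose 2.26-fold (1.86 to 2.73, adjusted p = 0.000315, the smallest of the comparison). Its signal was 992, 1021, 715 and 1032 at 0 h, 1815 and 1924 at 2 h, and 2397 and 2315 at 4 h. Sirpa, an inhibitory receptor of myeloid cells, rose by both of its probe sets, the brighter one 2.01-fold (adjusted p = 0.00432), from 518 to 813 at 0 h to 1097 to 1477. Rac2, a GTPase of blood cells, rose 1.78-fold (adjusted p = 0.0048), from 1004 to 1265 to 1651 to 2360.5.

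The counts for leukocyte genes varied with the 0 h number. Of 27 macrophage genes 3 rose and 0 fell over all 4 arrays at 0 h. Against number 2, 16 rose and 0 fell with a median log2 difference of 0.83, and against number 1, 4 rose and 5 fell with a median of -0.13. Against number 2, 7 of 16 T-cell and cytotoxic lymphocyte genes, 6 of 12 MHC class II genes and 5 of 18 B-cell genes rose and 0 fell, with medians of 0.57, 0.67 and 0.43. Against number 1 the same lists gave 2, 0 and 0 rises and 2, 1 and 1 falls. Of all genes 0.806% rose and 0.351% fell over the 4 arrays, 6.33% and 4.78% against number 2, and 17.9% and 15.5% against number 1. Chil3, a chitinase-like protein of alveolar macrophages, read 14694 and 14537 in number 1, 1175 and 3181 in number 2, 18599 and 13167 at 2 h, and 15238 and 14362 at 4 h. The neutrophil gene S100a8 read 2488 and 2432 in number 1, 128 and 342 in number 2, and 1411 to 1892 at the early hours. Ctss, a protease of antigen presenting cells, read 8547 and 8511 in number 1, 2984 and 4147 in number 2, and 8249 to 9672 at the early hours. For Chil3, S100a8 and Ctss number 2 stood apart low, and none passed over all 4 arrays at 0 h (adjusted p of 0.194, 0.421 and 0.185). The mean log2 signal of the 3 macrophage markers Chil3, Cd68 and Mrc1 was 9.11 to 9.6 in number 2, 10.8 to 10.9 in number 1 and 11.2 on each early array. Cd68 is 1 of these markers, so this level is not separate from the rise of Cd68. The part of the level in the rises of Cd68, Cybb, Adgre1 and Apbb1ip was not tested.

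**Figure D4:**
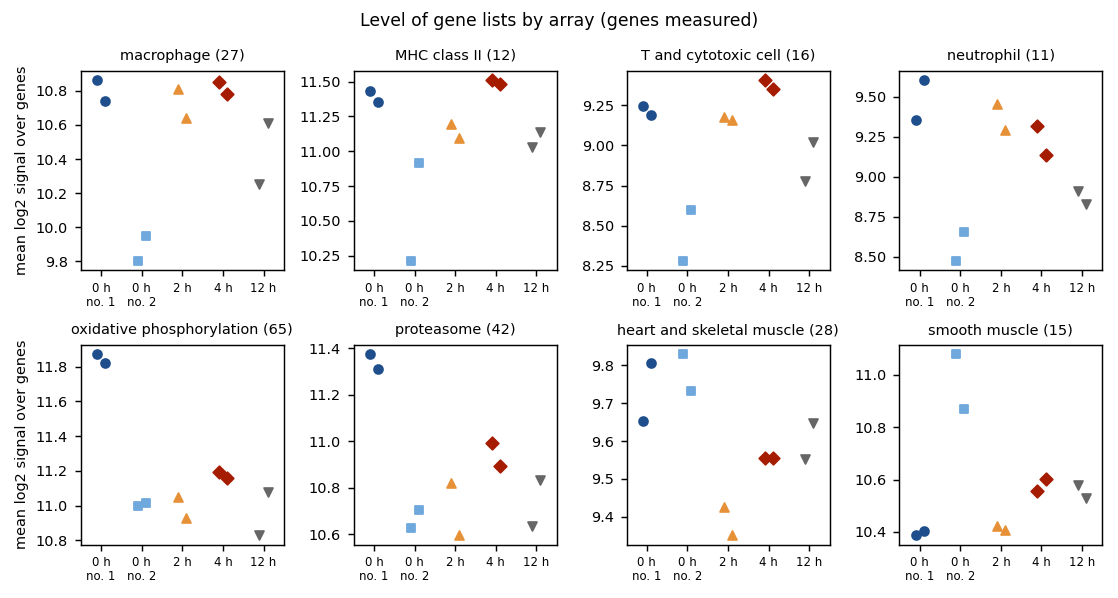
Mean log2 signal over the measured genes of 8 lists (number of genes in each title), 1 point per array, for 0 h number 1, 0 h number 2, 2 h, 4 h and 12 h. Macrophage, MHC class II, T-cell and neutrophil lists are lowest in 0 h number 2, oxidative phosphorylation and proteasome lists are highest in 0 h number 1, and heart and skeletal muscle genes are lower on all 4 early arrays (9.35 to 9.56) than on all 4 arrays at 0 h (9.65 to 9.83).

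Some vessel and matrix genes rose over all 4 arrays at 0 h. Lyve1, a hyaluronan receptor of lymphatic vessels that some macrophages also carry, read 888, 862, 764 and 1166 at 0 h, 1922 and 1567 at 2 h, and 1695 and 1578 at 4 h. It rose 1.85-fold (1.48 to 2.31, adjusted p = 0.00817). Thbd (thrombomodulin), the endothelial cofactor that turns thrombin to anticoagulant use, rose 1.51-fold (adjusted p = 0.0438), from 1635 to 2702 to 3041 to 3261. These were the 2 of 32 endothelial genes called, 0 fell, and the list's median log2 difference was 0.22 (0.34 against number 1, 0.12 against number 2). Against number 1, 14 endothelial genes rose and 2 fell, and against number 2, 6 rose and 2 fell. Lox, which cross-links collagen and elastin, read 295, 345, 260.1 and 432 at 0 h, 816 and 735 at 2 h, and 648 and 478 at 4 h, and rose 2.01-fold (adjusted p = 0.0267). Its other, dimmer probe set did not pass (log2 difference 0.06, adjusted p = 0.96). Postn (periostin), a matrix protein, rose 1.53-fold (adjusted p = 0.0314), from 2575 to 3307 to 3902 to 4725. Col3a1, the chain of type III collagen, rose 1.41-fold (adjusted p = 0.0334), from 1793 to 2064 to 2274 to 2982. Of Thbd and Col3a1 too, the dimmer probe sets did not pass (adjusted p of 0.916 for Thbd, and 0.273 and 0.656 for Col3a1). Of 37 matrix genes 2 rose and 0 fell, and of 21 collagen genes 1 rose and 0 fell. Against number 1, 12 matrix genes rose and 3 fell, and against number 2, 5 rose and 4 fell. Against number 1, 11 collagen genes rose with a median of 0.55, and against number 2, 2 rose with a median of -0.17. Of all genes 17.9% rose and 15.5% fell against number 1, and 6.33% and 4.78% against number 2. Over all 4 arrays at 0 h these shares were 0.806% and 0.351%. Npnt (nephronectin), a matrix ligand of integrin alpha 8 beta 1, read 2832 to 4243 at 0 h and 5339 to 6830.2 at the early hours and rose 1.82-fold (adjusted p = 0.0049).

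The falls included genes of heart and smooth muscle. Myl7, the atrial myosin light chain, read 10733, 10488, 9463 and 7411 at 0 h, 5141 and 4170.0 at 2 h, and 6541 and 6235 at 4 h. All early arrays lay below all 0 h arrays, and the fall was 1.73-fold (1.37 to 2.19, adjusted p = 0.0273). Tnni3, cardiac troponin I, read 2495, 2314, 2586 and 2001 at 0 h and 1290.0 to 1661 at the early hours, a fall of 1.58-fold (1.34 to 1.86, adjusted p = 0.00817). Myl4, an atrial light chain as well, fell 1.6-fold (adjusted p = 0.0276), from 4048 to 5549.8 to 2109 to 3735; its other probe set did not pass (log2 difference -0.25, adjusted p = 0.422). Of 28 heart and skeletal muscle genes 3 fell and 0 rose over all 4 arrays at 0 h. Against number 1, 8 fell and 2 rose with a median log2 difference of -0.26, and against number 2, 6 fell and 0 rose with a median of -0.35. The shares of all genes that fell were 0.351%, 15.5% and 4.78%, and of those that rose 0.806%, 17.9% and 6.33%. The rest of the markers of this tissue did not all keep to one direction, since Myh6, the cardiac heavy chain, averaged 537 in number 1, 2369.6 in number 2 and 822 at the early hours. Whether the amount of vein or heart muscle in each sample differed was not tested.

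Cnn1 (calponin), a smooth muscle actin-binding protein, read 1463, 1349, 2093 and 1589 at 0 h, 892 and 826 at 2 h, and 957 and 773 at 4 h, without overlap, and fell 1.86-fold (1.47 to 2.36, adjusted p = 0.0121). Des (desmin), the muscle intermediate filament, fell 1.62-fold (adjusted p = 0.0424), from 512 to 923 to 387 to 452. They were the 2 of 15 smooth muscle genes that fell, with 0 rises, and Tagln was next (1.54-fold lower, adjusted p = 0.0539). Against number 2, 6 smooth muscle genes fell and 1 rose (median log2 difference -0.50), while against number 1, 4 fell and 3 rose (median 0.03), beside 15.5% and 17.9% of all genes; against number 2 those shares were 4.78% and 6.33%, and over all 4 arrays 0.351% fell.

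Sftpc, the surfactant protein of alveolar type II cells, read 97698 and 88378 in number 1, 42569 and 51195 in number 2, 32858 and 33782 at 2 h, and 34038 and 29127 at 4 h. It fell 2.03-fold overall (1.48 to 2.79, adjusted p = 0.0313), by 2.87-fold against number 1 (adjusted p = 5.34e-06) and 1.44-fold against number 2 (adjusted p = 0.0448). Sftpc was itself the brightest probe set on the arrays of number 1, of 12 h (85544 and 94729) and of lungs restricted for 2 h (77793 and 76366), so that the highest signals given above for these arrays are no measure apart from it, and it read 32331 and 22257 in lungs restricted for 4 h. Hba-a1 (alpha globin) and Scgb1a1, also near the top of the range, respectively read 33578 to 38323 and 33488 to 41346 at the early hours, 71459 to 76919 and 66475 to 75170.0 in number 1, and 34835 to 37669 and 41964 to 47584 in number 2. Hba-a1 was likewise 67010.0 and 72854 at 12 h, 63264 and 62835 in lungs restricted for 2 h, and 35469 and 31390.1 in those restricted for 4 h. The part of the arrays' signal range in the fall of Sftpc was not tested. No other of the 10 type II and surfactant genes was called, beside 0.806% of all genes that rose and 0.351% that fell. Slc34a2, the phosphate carrier of these cells, was 1.39-fold higher (adjusted p = 0.067).

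Hp (haptoglobin), an acute phase protein also made in lung, fell 1.54-fold (adjusted p = 0.0419), from 35326 to 41931 at 0 h to 20999.9 to 27303, by nearly the same factor against number 1 (1.55-fold) and number 2 (1.52-fold). Serpina3n, a protease inhibitor of the acute phase, rose 1.5-fold (adjusted p = 0.0422), from 2091 to 2586 to 3344 to 3737. Tff2, a trefoil peptide of mucous epithelium, read 1711, 1553, 1156 and 1065 at 0 h, 674 and 670.2 at 2 h, and 855 and 599 at 4 h, a fall of 1.94-fold (adjusted p = 0.0276). Gpx2, an epithelial glutathione peroxidase, fell 1.64-fold (1.33 to 2.04, adjusted p = 0.0276), from 1792 to 2276 to 1117 to 1322. It was the only one of 36 antioxidant genes called, beside 0.806% of all genes that rose and 0.351% that fell. Anxa8, an annexin, fell 1.82-fold (adjusted p = 0.0126), from 1661 to 2485 to 892 to 1176. Hdc, the enzyme that makes histamine, read 3019, 2654, 3133 and 2948 at 0 h, 2387 and 1972 at 2 h, and 2034 and 1885 at 4 h, and fell 1.42-fold (adjusted p = 0.0424). Hdc was counted in the neutrophil list, where it was the only one of 11 genes called over all 4 arrays at 0 h, beside the same shares of all genes. Mast cells and basophils make it too.

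Calml4, a calmodulin-like protein, fell 2.36-fold (1.84 to 3.02, adjusted p = 0.00138), reading 1728, 1815, 1347 and 1109.7 at 0 h, 621 and 479 at 2 h, and 754 and 678 at 4 h. Pfn2, an actin-binding profilin, fell 1.78-fold (adjusted p = 0.0276), from 548 to 916 to 350.2 to 485. Pcp4l1, a small calmodulin-binding protein, fell 1.66-fold (adjusted p = 0.0276), from 1892 to 2018 to 996 to 1416, while its brighter probe set was 1.52-fold lower (adjusted p = 0.0673). Dipk2a, a secreted kinase-like protein, rose 2.05-fold (adjusted p = 0.00951), from 1442 to 2632 to 2979.6 to 4319. In each of these genes the early and 0 h arrays did not overlap.

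For several of the largest differences another probe set of the same gene did not follow. Thrap3, a pre-mRNA processing factor, showed the largest rise, from 81.1 to 104 at 0 h to 331 to 564 at the early hours (4.74-fold, adjusted p = 0.0113), but its bright probe set, at 3899 on average at 0 h, differed by a log2 of 0.11 (adjusted p = 0.76). Trav9d-3, a T-cell receptor alpha variable segment, was at least 3.75-fold higher (adjusted p = 0.00817) with 3 of 4 arrays at 0 h under the floor, and its brighter probe set by a log2 of 0.47 (adjusted p = 0.17). F2r (the thrombin receptor PAR1) rose 2.12-fold (adjusted p = 0.0376) by a dim probe set, from 188 to 414 to 537 to 846, and its brightest differed by 0.36 (adjusted p = 0.303). Spin1, a histone reader, rose 2.25-fold (adjusted p = 0.0305) and its brightest probe set differed by 0.35 (adjusted p = 0.33). Ctsb (cathepsin B) rose 1.73-fold by 1 probe set (adjusted p = 0.0438) and differed by -0.11 at its brightest (adjusted p = 0.659). Among falls, Ddx6, an RNA helicase of mRNA decay, fell 2.82-fold (2.11 to 3.77, adjusted p = 0.00126) and 2.18-fold by 2 probe sets, with 909 to 1251 at 0 h and 275 to 497 at the early hours for the first, while the third differed by -0.21 (adjusted p = 0.76). Stt3a, a subunit of the oligosaccharyltransferase, fell 2.85-fold by 1 probe set (adjusted p = 0.0438), a size that the floor understates because 1 early array lay under it, and differed by -0.05 by the other (adjusted p = 0.944). Dnajc3, a chaperone of the endoplasmic reticulum, fell 2.15-fold by 1 probe set (adjusted p = 0.0276), whereas its brightest differed by 0.32 (adjusted p = 0.36). Which probe sets report the transcript more faithfully was not tested.

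Genes of energy metabolism and protein turnover also gave unlike counts against each 0 h number. Of 65 oxidative phosphorylation genes 50 fell and 1 rose against number 1, with a median log2 difference of -0.79, whereas 0 fell and 1 rose against number 2, with a median of 0.08. For 22 ribosomal protein genes the counts were 19 falls and 0 rises (median -0.89) and then 0 falls and 5 rises (median 0.10). Over all genes 15.5% fell and 17.9% rose against number 1, and 4.78% and 6.33% against number 2. For 42 proteasome genes they were 27 falls and 3 rises (median -0.63) and then 0 falls and 2 rises (median 0.18). Over all 4 arrays at 0 h 0, 1 and 1 genes of these lists fell and 0 rose, beside 0.351% and 0.806% of all genes. Rpl41, a ribosomal protein, read 76137 and 67209.9 in number 1, 52254 and 48011 in number 2, and 26924 to 35796 at the early hours, a fall of 1.92-fold (adjusted p = 0.0438) that did not pass against number 2 (1.6-fold, adjusted p = 0.0697). Rpl41 and Rps28 lie near the top of the signal range, as Sftpc does, and the part of that range in their values was not tested. Psma3, a proteasome subunit, and the ribosomal gene Rps28 fell 1.61-fold and 1.58-fold over all 4 arrays (adjusted p = 0.0438 and 0.0442; the brightest probe set of Rps28 was 1.49-fold lower, adjusted p = 0.0539), with adjusted p of 0.0871 and 0.0865 against number 2. The autophagy receptor Nbr1 and the anthrax toxin receptor Antxr2 rose 1.72-fold and 1.62-fold (adjusted p = 0.0438 and 0.0402), and missed the threshold against number 2 in the same way (adjusted p = 0.11 and 0.0517).

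**Figure D5:**
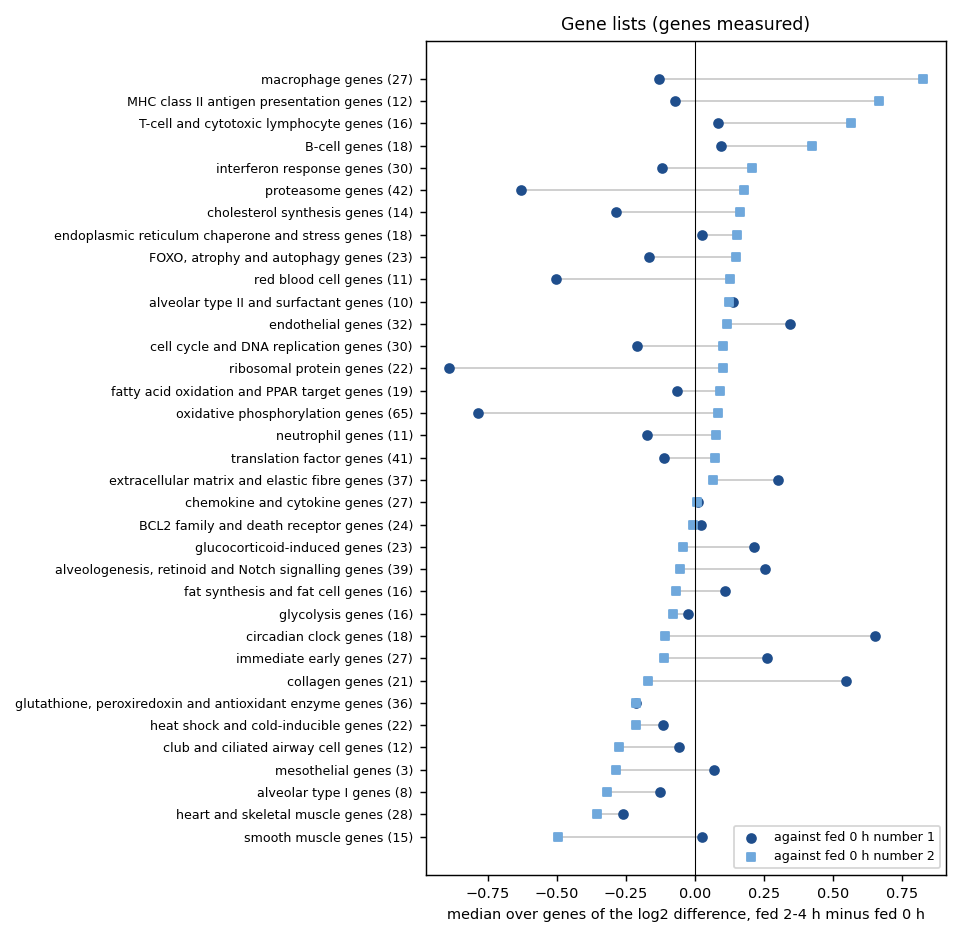
Median over genes of the log2 difference between the 4 early arrays and 0 h number 1 (circles) or number 2 (squares) for 35 gene lists, with the number of genes measured. Oxidative phosphorylation, ribosomal and proteasome lists lie at -0.79, -0.89 and -0.63 against number 1 and at 0.08 to 0.18 against number 2, the macrophage list at -0.13 and 0.83, and heart and skeletal muscle genes at -0.26 and -0.35.

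By hour, 6 probe sets (0.0806%) differed from 0 h at 2 h and 23 (0.309%) at 4 h. For all 89 the difference had the same sign at both hours, larger at 4 h for 50. The 89 were selected on the mean of both hours against the same 0 h arrays, so the shared sign does not test if the hours agree. No probe set (0.0%) differed between 4 h and 2 h; 313 had an unadjusted p under 0.05, which is 4.21% of those tested, and the smallest adjusted p was 0.448. At 2 h Fkbp5 and Apbb1ip were already higher and Tnni3, Myl4 and Calml4 lower than at 0 h. Without array 1b of 2 h none was called at 2 h, without 1a of 0 h 3 and without 2b of 0 h 17; at 4 h the count was 6 or 2 without 1a or 1b of 4 h and 92 without 2b of 0 h.

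At 12 h 35 probe sets (0.47%) differed from the 2 h and 4 h arrays, 14 higher and 21 lower, a count that was 9 or 11 without 1a or 1b of 12 h, 16 or 14 without 1a or 1b of 4 h and 23 without 1a of 2 h. Of the 89, 6 had moved back toward 0 h by this test, 1 had moved further, and the 12 h mean lay on the same side of the 0 h mean for 81. The 89 were selected on these 0 h and early arrays. Neither the moves back nor the shared side is therefore a separate test of whether the differences lasted. Apbb1ip was back at 1044 and 883 (log2 difference from the early hours -1.13, adjusted p = 0.00254) and Col3a1 fell to 1454 and 1543 (-0.86, adjusted p = 0.00436). Serpina3n stood at 2039 and 1883 (-0.85, adjusted p = 0.0171), while Hdc fell further to 952 and 1244 (-0.92, adjusted p = 0.00438). Fkbp5 was at 1538 and 1522, above its early level by a log2 of 0.75, which did not pass (adjusted p = 0.176). The core clock repressor Cry1, at 630.2 to 859 at the early hours, was at 1761 and 2426 at 12 h (log2 difference 1.41, adjusted p = 0.00175, the joint smallest of this comparison). Counting 1 probe set per gene, 11 of 5706 genes were higher and 19 lower at 12 h than at the early hours. Of 22 heat shock and cold-inducible genes 7 were higher and 1 lower in that comparison. Among those higher was Hspa1b, which went from 278 to 333 to 1334 and 1165 (adjusted p = 0.013). None of these 22 was called between 0 h and the early hours over all 4 arrays at 0 h, where 0.806% of all genes rose and 0.351% fell.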

How the data were processed

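For 24 Affymetrix MG-U74Av2 arrays the authors deposited linear intensities, 1 per probe set; the values show that arrays were already brought to a common trimmed mean, and no source used here names the software. Arrays were rescaled to equal medians, signals below 80.37 (the 25th percentile) were set to that floor, which shrinks differences between dim probe sets, and logged to base 2. Controls aside, 12422 probe sets were present, of which 7440 were at or above an array's median on 2 or more arrays; 6725 of these carry a single gene symbol (5706 genes). One mean per group was fitted to all 24 arrays with limma 3.58.1 (R 4.3.3), its variances moderated along a trend with intensity, leaving 13 residual degrees of freedom, or 12 with the 0 h numbers apart. A probe set was called when its Benjamini-Hochberg adjusted p across all 7440 was below 0.05 in a two-sided test. Fold means the ratio of geometric means, its interval being at 95%, and printed signals are rescaled ones before the floor. The fit was tested on simulated arrays with independent noise. Those held no difference between the 0 h numbers, so they do not test how the fit handles it.

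The members and lists were chosen with earlier results of these data known. The rule for naming genes took the 12 largest rises and 12 largest falls called in all 3 comparisons without overlap of arrays. It also took the 4 largest each way not called against number 2 and up to 4 members of each list by smallest p. Every clock gene and the cell type markers completed it. The text does not name all genes of this rule, and the clock genes Rora, Nfil3, Csnk1d, Csnk1e and Usp2 are among those left out. Cdc42ep4, Hp, Hspa1b, Npnt, Numb, Rac2, Serpina3n, Shisa5, Sirpa and Zfp36l2 are outside this rule and were named after their values were seen. A list takes 1 probe set per gene, the brightest. Alternatives covered normalization, floor, filter, variance trend, arrays in the fit, letters as a replicate block or averaged, and single arrays left out. The number of arrays, 2 to 4 per group, limits the precision. An array of another platform was not used.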

Additional observations from a re-analysis of the deposited data

Results flagged for a closer look

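With 4 arrays per group, a lone array was looked for by the gap to its nearest neighbour as a share of the group's whole range. Against Dixon's critical value, 6 lone arrays were found in 154 groups of the genes named. Chance alone gives about 1 in 20 where the 4 arrays are independent and of one kind. The 0 h group joins numbers 1 and 2 and the early group joins 2 h and 4 h, so that rate need not apply. Trav9d-3 at 0 h had array 2b high with a share of 1.0, since the other 3 lay at the floor. Apbb1ip at 0 h had array 2a low (0.895), and Numb, which rose 1.7-fold by 1 of its probe sets, had array 2b high at 0 h (0.929). Among the early arrays, array 1a of 2 h was high for Dnajc3 (0.944) and Slc34a2 (0.888), and array 1b of 2 h was low for Npnt (0.873).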

How the results depend on the processing

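The count of 89 was 83 to 122 under quantile normalization, the signal as deposited, the 10th percentile floor, no filter and a filter on 8 arrays. It fell to 54 without the intensity trend, 1 with the 8 arrays alone, and 0 with the fed arrays alone or with letters averaged (688, 683 and 144 at an unadjusted p under 0.05). All 89 kept their direction in each alternative that held them, but the alternatives reuse the arrays that selected the 89 and are no separate test. The letters did not pair the arrays (correlation of a minus b between groups -0.077 to 0.044); with the letter as a replicate block the counts were 65 over all 4 arrays at 0 h, 2376 and 772 against numbers 1 and 2, and 3, 22, 0 and 35 at 2 h, at 4 h, between them and at 12 h. The 2 h count of 6 was 25 under quantile normalization, 22 on the signal as deposited, 12 without the filter and 0 with the fed arrays alone. The 4 h count of 23 was 40 without the filter and 2 with the fed arrays alone, and the 12 h count of 35 was 67 and 0. Leaving out single arrays gave 21 to 233 calls over all 4 arrays at 0 h, 1434 to 2108 against number 1, 106 to 616 against number 2 (106 without array 2a of 0 h), 0 to 17 at 2 h, 2 to 92 at 4 h, 0 in each fit between 4 h and 2 h, and 9 to 27 for 12 h. The count against number 2 without the filter was 562. Causes were not tested. Probe sets at the floor give only bounds.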
